A study of Mus musculus with 14 samples.

Results

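The genes described here are 10 markers of mature dentate granule cells, the principal neurons of the dentate gyrus of the hippocampus: Calb1, Rbfox3, Dsp, Plk5, Rasl10a, Icam5, Camk4, Tdo2, Stxbp6 and Ntng1. They were chosen by name, each matched to 1 of the 43346 gene identifiers counted, and all 10 were among the 18676 genes that passed the filter on low counts. RNA was measured at day 14 in GFP-positive cells sorted alive from the hippocampus of wild-type C57BL/6 mice, cells that the labels call abGCs (adult-born granule cells). Every sample held about 800 to 1000 cells, and cDNA was made from polyadenylated RNA with the SMART-Seq v4 kit, which amplifies the RNA of very few cells. The design crossed a virus (CAG-GFP, or a DREADD, a designer receptor that answers to the drug CNO) with seizures, and the animals of all 4 groups received CNO. The groups were CAG-GFP Sham (no seizures, 3 libraries), CAG-GFP Pilo (seizures, 4 libraries), DREADD Sham (no seizures, 4 libraries) and DREADD Pilo (seizures with silencing, 3 libraries). Pilo stands for pilocarpine, which was injected at 300 mg/kg to start status epilepticus. The labels name silencing only for DREADD Pilo, although DREADD Sham also received CNO. The age of the animals, the promoter of the DREADD and the injections of the sham animals are not stated in the labels. The labels do not tie the libraries of a group to separate animals. The p-values below therefore describe the spread between libraries, which may be technical.

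Adult-born granule cells begin as dividing progenitors, pass through an immature stage marked by doublecortin and calretinin, and then switch calretinin for calbindin as they mature and receive excitatory synapses. NeuN, the product of Rbfox3, appears when the cells have left the cell cycle, and Prox1 marks the granule cell lineage at every stage. The members include calcium-handling proteins and kinases (Calb1, Camk4, Plk5), a splicing regulator (Rbfox3), proteins of small GTPase signalling and vesicle fusion (Rasl10a, Stxbp6), adhesion molecules (Icam5, Ntng1, Dsp) and an enzyme of tryptophan breakdown (Tdo2). Dsp, Plk5 and Tdo2 are used in rodents to tell granule cells from other hippocampal neurons, whereas Calb1, Rbfox3, Camk4 and Icam5 are also made by pyramidal neurons.

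The libraries held 10613291 to 38614639 counts, and levels below are CPM, counts scaled to a common library size with the TMM factor, which corrects for differing make-up. The libraries were split into 2 sets by their names in the labels. The names in set 1 are all in capitals and end in SC or PC and a number. The names in set 2 are the others and share no single style. The labels do not define these sets or say what they stand for. Set 1 holds all of CAG-GFP Sham together with the libraries numbered 3 and 4 of CAG-GFP Pilo and those numbered 1 and 2 of DREADD Sham; set 2 holds the remaining 7, with all of DREADD Pilo. The sets stood apart in the share of counts on pseudogenes, 0.117 to 0.200% in set 1 and 4.33 to 8.12% in set 2. The members made up little of any library, and glial genes made up much more. Summed over 10 astrocyte markers the level averaged 27053 ± 723 CPM (SD, n = 3) in CAG-GFP Sham and 2185 to 3173 CPM in the other 3 groups, and over 10 oligodendrocyte markers it averaged 633 ± 61.2 CPM in CAG-GFP Sham. The oligodendrocyte sum spread widely in the other groups, from 1348 to 37799 CPM in CAG-GFP Pilo, from 19003 to 40769 CPM in DREADD Sham and from 402 (DREADD Pilo 3) to 43674 CPM in DREADD Pilo. The share of counts on mitochondrial genes was 11.6 to 12.7% in CAG-GFP Sham, 12.7 and 13.9% in CAG-GFP Pilo 1 and 2, 25.8% in DREADD Pilo 3 and 2.06 to 4.90% in the other 8 libraries. Prox1 had no counts in CAG-GFP Pilo 4 or in DREADD Pilo 3, which go against the granule cell label in that gene. CAG-GFP Pilo 4 had counts for 9372 genes, the fewest of the 14 libraries, and 8 markers of ependyma and choroid plexus summed to 190949 CPM in DREADD Pilo 3; the next highest library held 17311 CPM. In such sorted samples fewer cells of a type and less RNA per cell cannot be told apart.

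Promoter sequences are shown for 3 of the members on which the comparisons turn, Plk5, Rasl10a and Rbfox3. Calb1 is another such member, but its promoter was not available. Of the 10 members, 8 had an entry in the RefSeq table (build GRCm38.p6), which gives 250 bases before and 50 after a gene's start; Calb1 and Camk4 had none. Capitals mark the E-box CANNTG, the core motif of basic helix-loop-helix factors such as the neurogenic NeuroD proteins. Plk5 lies on the forward strand at chr10:80356209-80356508, Rasl10a on the forward strand at chr11:5057878-5058177, and Rbfox3 on the reverse strand at chr11:118760992-118761291, a start within the gene.
Plk5: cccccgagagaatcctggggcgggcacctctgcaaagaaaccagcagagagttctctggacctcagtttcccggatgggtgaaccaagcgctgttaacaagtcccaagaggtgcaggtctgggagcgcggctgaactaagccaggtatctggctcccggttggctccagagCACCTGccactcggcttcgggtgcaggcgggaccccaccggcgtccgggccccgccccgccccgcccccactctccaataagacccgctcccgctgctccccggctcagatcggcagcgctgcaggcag
Rasl10a: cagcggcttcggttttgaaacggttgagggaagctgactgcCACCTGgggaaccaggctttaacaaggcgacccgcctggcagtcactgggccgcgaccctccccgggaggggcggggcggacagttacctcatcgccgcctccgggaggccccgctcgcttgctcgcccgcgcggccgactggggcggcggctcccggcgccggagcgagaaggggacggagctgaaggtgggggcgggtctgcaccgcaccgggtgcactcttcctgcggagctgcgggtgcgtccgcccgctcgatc
Rbfox3: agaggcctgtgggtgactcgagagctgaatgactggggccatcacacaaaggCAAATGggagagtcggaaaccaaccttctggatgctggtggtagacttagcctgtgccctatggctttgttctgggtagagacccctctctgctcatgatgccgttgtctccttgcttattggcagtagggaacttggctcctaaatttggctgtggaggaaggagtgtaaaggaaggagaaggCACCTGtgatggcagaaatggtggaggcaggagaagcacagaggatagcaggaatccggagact
Read on both strands, CANNTG occurred in 5 of the 8 member windows and in 72.3% of the 32851 windows of the table. The NeuroD form CAGATG, which is 1 form of CANNTG, occurred in 0 of 8 against 17.2%, and TGACGTCA, the full cAMP response element, in 0 of 8 against 1.79%. CACCTG, another form of CANNTG and the one seen in all 3 sequences above, was counted after it had been seen, and occurred in 4 of 8 windows (Rbfox3, Dsp, Plk5 and Rasl10a) against 20.2%.

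Per kilobase of merged exon and over all 14 libraries, Calb1 had the highest mean level of the members, 34.3 CPM per kb, followed by Rasl10a at 25.8 CPM per kb. Camk4 (7.66), Stxbp6 (6.44), Icam5 (5.12) and Tdo2 (4.69 CPM per kb) lay in the middle of the order. Rbfox3 (2.66), Plk5 (2.22), Dsp (1.75) and Ntng1 (0.876 CPM per kb) were lowest. Neighbours in this order were not separated: Calb1 exceeded Rasl10a in 7 of 14 libraries, and Stxbp6 exceeded Icam5 in 10 of 14, the most for any neighbouring pair. Only Stxbp6 had counts in all 14 libraries, and Dsp and Tdo2 had counts in 9. A library with 0 counts of a gene allows a level of up to 0.056 CPM in CAG-GFP Pilo 4 and up to 0.334 CPM in DREADD Pilo 3, the deepest and the shallowest after scaling (3 counts, counting error only).

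**Figure D1:**
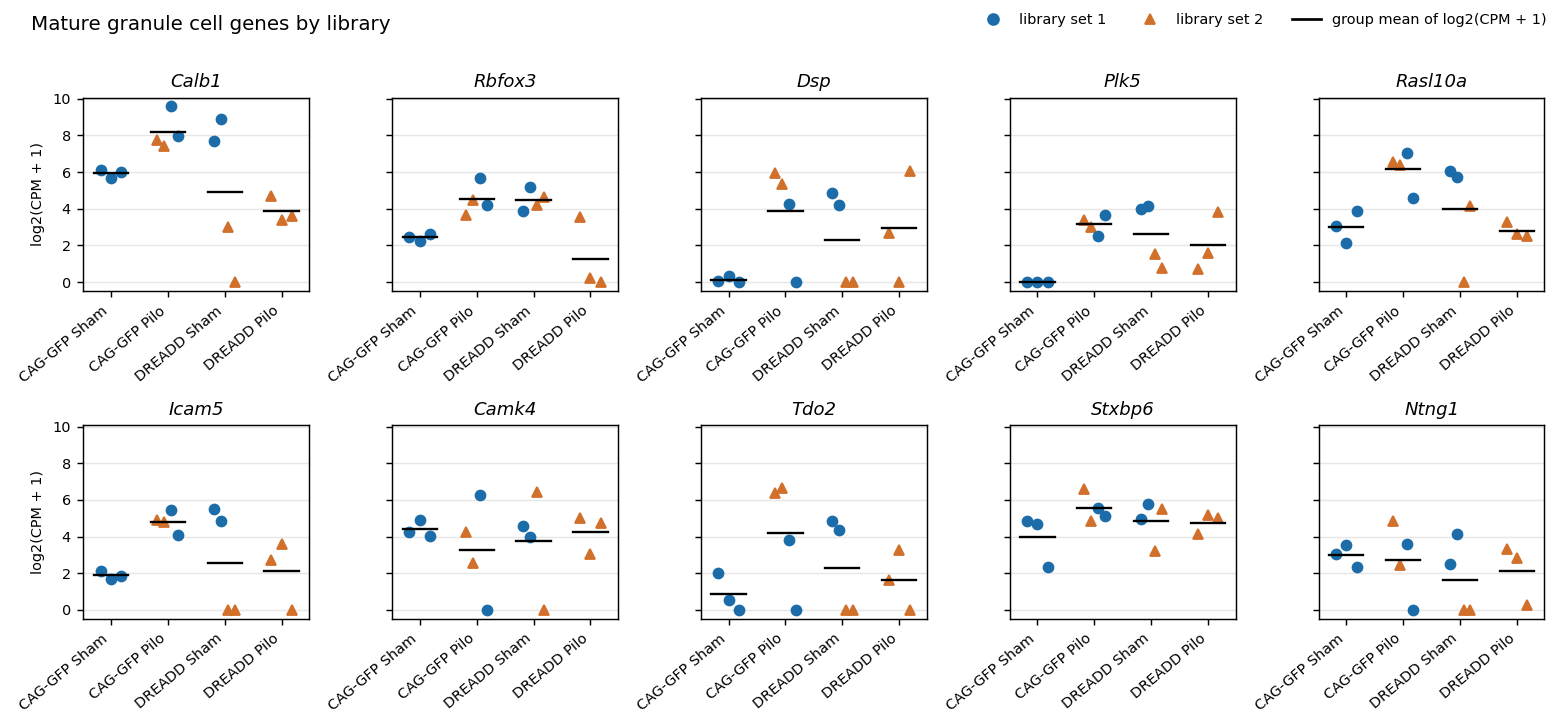
Level of each of the 10 genes in each library, as log2(CPM + 1), by group; circles are library set 1, triangles library set 2, and bars the group mean on that scale. Plk5 lies at 0 in the 3 CAG-GFP Sham libraries and above 0 in the other 11, and the circles and triangles of DREADD Sham separate for Calb1, Dsp, Icam5 and Tdo2.

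Seizures without silencing were read from CAG-GFP Pilo against CAG-GFP Sham. All 10 members had a positive log2 fold change, with a median of 2.94, where 58.6% of all genes tested were positive with a median of 0.41. Plk5, a polo-like kinase of the brain, stood furthest apart: it had no counts in CAG-GFP Sham and 8.24 ± 2.89 CPM (SD, n = 4) in CAG-GFP Pilo. None of the 10 passed the edgeR quasi-likelihood test at an adjusted p of 0.05 over all genes, in a comparison that called 0.241% of the genes, 0.0696% as higher and 0.171% as lower. That background rested on single libraries: leaving out 1 library at a time gave 3 to 151 genes called in place of 45, the most without DREADD Pilo 3. At an unadjusted p under 0.05 there were 3 members (Plk5, Dsp and Rasl10a) against 15.4% of all genes, and DESeq2 called 2 (Plk5 and Dsp) against 11.8%. In 6 of 10 members (Calb1, Rbfox3, Plk5, Rasl10a, Icam5 and Stxbp6) every CAG-GFP Pilo library lay above every CAG-GFP Sham library, which held for 6.55% of all genes. Without CAG-GFP Pilo 4, in which Prox1 had no counts, this held for 8 members, Dsp and Tdo2 in addition, and for 14.2% of all genes. Oligodendrocyte markers had positive log2 fold changes in 10 of 10 (median 4.12), and endothelial markers in 8 of 9 (5.25). Pan-neuronal markers were positive in 14 of 14 (1.76), immature neuron in 10 of 11 (1.95) and interneuron in 5 of 6 (4.20). Astrocyte markers were positive in 0 of 10 (-3.32) and CA pyramidal markers in 3 of 8 (-0.39). The part of these cells in the members' values was not tested.

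Among the calcium-handling proteins and kinases, Calb1 (chr4:15881264-15908064, GRCm38), which encodes the calcium buffer calbindin, stood at 67.8, 51.0 and 64.4 CPM in CAG-GFP Sham 1 to 3. In CAG-GFP Pilo 1 to 4 it stood at 216, 173, 765 and 251 CPM. The CAG-GFP Pilo libraries were all higher, and CAG-GFP Pilo 3 was far above the other 3. The log2 fold change was 2.53 ± 1.61 (SE, edgeR adjusted p = 0.443), and 1.81 without CAG-GFP Pilo 3. Plk5 (chr10:80356459-80365489) had 0 counts in CAG-GFP Sham 1 to 3 and 9.58, 7.17, 4.78 and 11.4 CPM in the 4 CAG-GFP Pilo libraries. No library of one group reached the other. Against a floor of 3 counts over the 3 CAG-GFP Sham libraries the mean of Plk5 was at least 163-fold higher in CAG-GFP Pilo (edgeR adjusted p = 0.133, DESeq2 adjusted p = 4.36e-07). This bound and those of the same kind below cover counting error only, not the spread between libraries. Camk4, on chromosome 18, encodes a calcium/calmodulin-dependent kinase that phosphorylates CREB in the nucleus. Its levels were 18, 29.3 and 15.5 CPM in CAG-GFP Sham and 18.3, 4.97, 76.8 and 0 CPM in CAG-GFP Pilo. The groups overlapped, with the highest and the lowest library both in CAG-GFP Pilo, and the log2 fold change of 0.26 ± 1.82 (SE, edgeR adjusted p = 0.972) had an interval of 2 SE from -3.38 to 3.90.

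Rbfox3 (chr11:118489762-118911597), which encodes the neuronal splicing regulator NeuN, stood at 4.47, 3.70 and 5.19 CPM in CAG-GFP Sham. After seizures it stood at 11.8, 21.2, 50.7 and 17.7 CPM (CAG-GFP Pilo), above every sham library. Its log2 fold change was 2.51 ± 1.48 (SE, edgeR adjusted p = 0.405). Rasl10a (chr11:5058128-5060385), a Ras-like small GTPase, stood at 7.21, 3.36 and 13.8 CPM in CAG-GFP Sham and at 94.7, 84.0, 130 and 23.5 CPM in CAG-GFP Pilo. The groups did not overlap, although CAG-GFP Pilo 4 was nearer to the sham libraries than to the other seizure libraries. The ratio of the group means was 10.2, and the log2 fold change 3.36 ± 1.46 (SE, edgeR adjusted p = 0.309). Stxbp6 (chr12:44852484-45074709) encodes amisyn, a protein that binds the syntaxins of the vesicle fusion machinery. It stood at 27.8, 24.6 and 4.09 CPM in CAG-GFP Sham and at 94.2, 28.2, 46.4 and 33.5 CPM in CAG-GFP Pilo. The lowest CAG-GFP Pilo library was only just above the highest sham library, and the log2 fold change was 1.43 ± 0.84 (SE, edgeR adjusted p = 0.404; 0.94 without CAG-GFP Pilo 1).

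The adhesion genes differed among themselves. Icam5 (chr9:21032073-21039036), which encodes telencephalin of forebrain dendrites, stood at 3.33, 2.22 and 2.62 CPM in CAG-GFP Sham and at 29.4, 26.8, 42.4 and 16 CPM in CAG-GFP Pilo. The groups did not overlap, and the ratio of their means was 10.5 (log2 fold change 3.39 ± 2.18, SE, edgeR adjusted p = 0.449). Icam5 shares 791 bases of exon with an antisense gene, Gm26592, and since the strand setting of the counting is not known here, reads of the 2 genes cannot be told apart. Dsp (chr13:38151294-38198577) encodes desmoplakin, which anchors intermediate filaments at desmosomes. It had 6 counts in all of CAG-GFP Sham (0.0497, 0.247 and 0 CPM) and stood at 60.3, 39.2, 18.4 and 0 CPM in CAG-GFP Pilo. CAG-GFP Pilo 4 shared the value of 0 with CAG-GFP Sham 3, and the other 3 seizure libraries lay far above (log2 fold change 8.14 ± 3.46, SE, edgeR adjusted p = 0.304). Ntng1 (chr3:109780040-110144011), which encodes the axonal adhesion protein netrin-G1, stood at 7.26, 10.5 and 4.09 CPM in CAG-GFP Sham and at 27.6, 4.51, 10.9 and 0 CPM in CAG-GFP Pilo. The groups overlapped, and the log2 fold change was 0.56 ± 2.24 (SE, edgeR adjusted p = 0.942).

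Tdo2 (chr3:81957090-81976202) encodes tryptophan dioxygenase, which opens the kynurenine pathway and is known from the liver and from mature granule cells. It stood at 3.03, 0.444 and 0 CPM in CAG-GFP Sham and at 81.2, 98.8, 13 and 0 CPM in CAG-GFP Pilo. The highest values were the 2 libraries of set 2, and CAG-GFP Pilo 4 again had no counts (log2 fold change 5.37 ± 3.01, SE, edgeR adjusted p = 0.382). Between the sets of CAG-GFP Pilo, Calb1 was higher in set 1 without overlap, against 15.8% of all genes, and Dsp and Tdo2 were lower, against 23% of all genes. Within set 1 alone, with CAG-GFP Pilo 3 and 4 against the 3 sham libraries, 9 of 10 members were positive with a median of 2.95, against -0.07 for all genes tested. There Calb1 passed the edgeR test (log2 fold change 3.00 ± 0.51, SE, adjusted p = 0.0231) in a fit that called 2.73% of the genes. Within set 1 the mitochondrial share also separated the groups, 11.6 to 12.7% in CAG-GFP Sham against 2.06 and 2.25% in CAG-GFP Pilo 3 and 4, and its part in these differences was not tested. The same 6 members as in the whole groups did not overlap in set 1, against 13.9% of all genes. Summed pan-neuronal markers averaged 4088 ± 2679 CPM in CAG-GFP Pilo and 1574 ± 169 CPM in CAG-GFP Sham, and their part in the members' differences was not tested. Per 1000 CPM of the 14 pan-neuronal markers the members summed to 112 to 257 CPM in CAG-GFP Pilo and 70.9 to 94.0 CPM in CAG-GFP Sham, without overlap. On the same scale they summed to 79.5 to 219 CPM in DREADD Sham, which overlapped CAG-GFP Sham, and to 92.9, 153 and 1713 CPM in DREADD Pilo, where 1 library lay below, 1 within and 1 above the range of CAG-GFP Pilo.

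**Figure D2:**
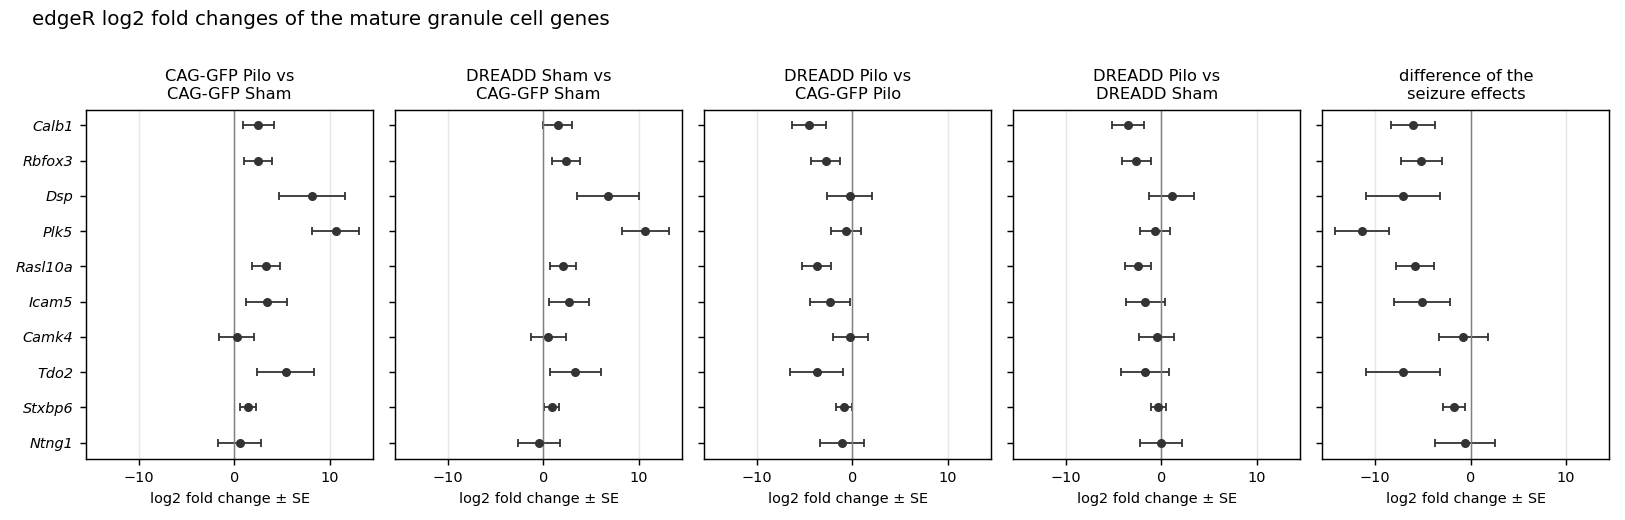
Log2 fold change of each gene in the 4 comparisons and in the difference of the seizure effects between the viruses, from the edgeR fit of all 14 libraries; bars are 1 SE. All points of the first panel lie right of 0, and all points of the third and the last panel lie left of 0.

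The DREADD virus with CNO but without seizures was read from DREADD Sham against CAG-GFP Sham. That comparison shares its control libraries with the one above. Both groups received CNO, so the virus and the activation of its receptor by CNO cannot be told apart here. Of the members 9 of 10 were positive, with a median of 2.21, against 61.1% of all genes and a median of 0.53. None passed the edgeR test in a comparison that called 0.3% of the genes, 0.0535% as higher and 0.246% as lower, and 6 to 260 genes in place of 56 when 1 library was left out, the most again without DREADD Pilo 3. At an unadjusted p under 0.05 there was 1 member, Plk5, against 18.6% of all genes, and DESeq2 called the same member against 14.2%. Plk5 stood at 15.1, 16.7, 1.92 and 0.739 CPM in DREADD Sham 1 to 4, at least 171-fold higher on average than the floor of CAG-GFP Sham (edgeR adjusted p = 0.102; DESeq2 adjusted p = 3.96e-07). Rbfox3 stood at 13.5, 35.3, 17.6 and 24.3 CPM in DREADD Sham, above all 3 CAG-GFP Sham libraries (log2 fold change 2.35 ± 1.47, SE, edgeR adjusted p = 0.411). These were the 2 of 10 members whose groups did not overlap, against 9% of all genes. Oligodendrocyte markers had positive log2 fold changes in 10 of 10 (median 4.79), and endothelial markers in 9 of 9 (7.87). Immature neuron markers were positive in 10 of 11 (3.31) and pan-neuronal markers in 10 of 14 (0.91). Astrocyte markers were positive in 0 of 10 (-3.14) and CA pyramidal markers in 3 of 8 (-0.34). The part of these cells in the members' values was not tested.

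The members of DREADD Sham split by library set. In DREADD Sham 1 and 2 (set 1) Calb1 stood at 208 and 476 CPM, and in DREADD Sham 3 and 4 (set 2) at 7.17 and 0 CPM. Icam5 stood at 44.5 and 27.4 CPM in the first pair and at 0 in the second, Tdo2 at 28.2 and 19.5 CPM against 0, and Dsp at 28.3 and 17.8 CPM against 0. Rasl10a stood at 66.8 and 52.6 CPM against 0 and 16.7 CPM, and Ntng1 at 4.66 and 16.4 CPM against 0. In 7 of 10 members (these 6 and Plk5) both libraries of set 1 lay above both of set 2, which held for 26.9% of all genes, and no member lay the other way, against 23.1%. Rbfox3, Camk4 and Stxbp6 overlapped, Camk4 with its highest level of all 14 libraries in DREADD Sham 3 (84.7 CPM) and 0 in DREADD Sham 4. Summed immature neuron markers moved the other way, with 569 and 658 CPM in DREADD Sham 1 and 2 and 2051 and 1884 CPM in DREADD Sham 3 and 4, while pan-neuronal markers stood at 3083 and 3330 CPM against 877 and 1082 CPM. Markers of other cells split by the same pairs: 9 endothelial genes summed to 58.4 and 29.7 CPM against 882 and 684 CPM, and the ependymal and choroid plexus genes to 17210 and 17311 CPM against 710 and 457 CPM. The part of these cells in the split was not tested. Against the 3 CAG-GFP Sham libraries, all of set 1, the pair of set 1 lay higher in 8 of 10 members, against 22.1% of all genes, and Calb1 passed the edgeR test there (log2 fold change 2.47 ± 0.51, SE, adjusted p = 0.0428; 3.07% of genes called). The mitochondrial share was 2.42 and 2.21% in that pair, against 11.6 to 12.7% in CAG-GFP Sham, and its part was not tested.

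Silencing during seizures was read from DREADD Pilo against CAG-GFP Pilo. All 10 members had a negative log2 fold change, with a median of -1.72, where 58.4% of all genes were positive with a median of 0.28. None passed the edgeR test, which called 0% of all genes here. At an unadjusted p under 0.05 there were 2 members (Calb1 and Rasl10a) against 5.36% of all genes, and DESeq2 called 0 members against 0.921%. In 4 members (Calb1, Rbfox3, Rasl10a and Icam5) every DREADD Pilo library lay below every CAG-GFP Pilo library, which held for 3.15% of all genes. Without CAG-GFP Pilo 4 this held for 5 members, Tdo2 in addition, against 5.69% of all genes. Without DREADD Pilo 3 it held for 5 as well, Plk5 in addition, against 5.89%.

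Calb1 stood at 24.8, 9.60 and 11.1 CPM in DREADD Pilo 1 to 3, a mean of 15.2 ± 8.39 CPM (SD, n = 3) against 351 ± 278 CPM (SD, n = 4) in CAG-GFP Pilo. No library overlapped, and the log2 fold change was -4.53 ± 1.79 (SE, edgeR adjusted p = 0.882). Rasl10a stood at 8.64, 5.28 and 4.67 CPM, below even the 23.5 CPM of CAG-GFP Pilo 4 (log2 fold change -3.74 ± 1.49, SE, edgeR adjusted p = 0.882). Rbfox3 stood at 10.7, 0.180 and 0 CPM, with 3 counts in DREADD Pilo 2 and none in DREADD Pilo 3. DREADD Pilo 1 came close to the lowest CAG-GFP Pilo library, and the log2 fold change was -2.80 ± 1.5 (SE, edgeR adjusted p = 0.882). Without DREADD Pilo 1 it was -7.96, a value that rests on the 3 counts left in the group. Icam5 stood at 5.71, 10.9 and 0 CPM, all below the CAG-GFP Pilo libraries (log2 fold change -2.36 ± 2.07, SE, edgeR adjusted p = 0.964).

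The remaining members overlapped between DREADD Pilo and CAG-GFP Pilo. Tdo2 stood at 2.09, 8.76 and 0 CPM in DREADD Pilo, and only the 0 of CAG-GFP Pilo 4 lay as low in the other group (log2 fold change -3.73 ± 2.76, SE, edgeR adjusted p = 0.943). Dsp stood at 5.51, 0 and 66.6 CPM, with its highest level of all libraries in DREADD Pilo 3. That library also held the highest summed choroid plexus markers, and their part in the level of Dsp was not tested; without it the log2 fold change moved from -0.29 to -3.42. Plk5 stood at 0.646, 1.98 and 13.1 CPM, again highest in DREADD Pilo 3, and its log2 fold change was -0.65 ± 1.57 (SE, edgeR adjusted p = 0.996; -2.66 without that library). Camk4 (31.1, 7.32 and 25.8 CPM), Stxbp6 (16.6, 34.9 and 30.8 CPM) and Ntng1 (8.94, 6.00 and 0.223 CPM) had log2 fold changes of -0.23 ± 1.82, -0.88 ± 0.82 and -1.08 ± 2.27 (SE). All 3 overlapped between the groups, and without CAG-GFP Pilo 1 Stxbp6 and Ntng1 stood at -0.39 and -0.02. Within set 2, with CAG-GFP Pilo 1 and 2 against the 3 DREADD Pilo libraries, 9 of 10 members were negative with a median of -1.91, against 0.26 for all genes. There 5 members (Calb1, Rbfox3, Rasl10a, Icam5 and Tdo2) were lower without overlap, against 10.2% of all genes. Over all libraries pan-neuronal markers moved in the same direction as the members, with 0 of 14 positive and a median log2 fold change of -3.03. CA pyramidal markers did so too over all libraries, with 1 of 8 positive and a median of -3.45. Within set 2 the summed pyramidal markers averaged 48.1 CPM in CAG-GFP Pilo and 49.1 CPM in DREADD Pilo. The pan-neuronal markers averaged 2556 and 626 CPM there. Per 1000 CPM of pan-neuronal markers the members of DREADD Pilo overlapped those of CAG-GFP Pilo, as given above, with the highest value in DREADD Pilo 3, which held only 89.0 CPM of those markers. The separation of the members' summed CPM was thus absent on that scale.

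Seizures under silencing were read from DREADD Pilo against DREADD Sham. Here 9 of 10 members were negative, with a median of -1.21, and Dsp was positive, against 52.3% positive and a median of 0.07 for all genes. None passed the edgeR test, which called 0% of all genes. No member had an unadjusted p under 0.05, against 5.18% of all genes, and DESeq2 called none against 0.846%. Calb1 had the most negative log2 fold change, -3.51 ± 1.69 (SE, edgeR adjusted p = 0.956; -2.24 without DREADD Sham 2), and Rasl10a stood at -2.45 ± 1.39. Rbfox3 was the 1 member whose groups did not overlap, DREADD Pilo below DREADD Sham, against 2.23% of all genes (log2 fold change -2.63 ± 1.49, SE, edgeR adjusted p = 1; -7.79 without DREADD Pilo 1). The direction turned with the library set. In set 2 alone, with DREADD Sham 3 and 4 against the 3 DREADD Pilo libraries, 7 of 10 members were positive with a median of 2.03, against 0.20 for all genes. In 4 of these (Dsp, Icam5, Tdo2 and Ntng1) DREADD Sham 3 and 4 held no counts. Against a floor of 3 counts over those libraries the mean of DREADD Pilo was at least 322-fold higher for Dsp, 74.3-fold for Icam5, 67.7-fold for Ntng1 and 48.4-fold for Tdo2, although 1 DREADD Pilo library also had no counts of Dsp, of Icam5 and of Tdo2. With these 4 at their bounds the median was 2.03 as well. Calb1 and Ntng1 were then higher in DREADD Pilo without overlap, against 13.9% of all genes, and Rbfox3 lower, against 10.2%. For Ntng1 this rested on 2 counts in DREADD Pilo 3 (0.223 CPM), below the floor of that library (0.334 CPM). Over all libraries no member was higher in DREADD Pilo without overlap, against 4.39% of all genes. With the set as a covariate over all libraries 6 of 10 were positive with a median of 0.52. Virus, seizures and set are unevenly crossed, CAG-GFP Sham lying only in set 1 and DREADD Pilo only in set 2.

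The difference of the seizure effects was tested as the interaction of virus and seizures. All 10 members were negative, with a median of -5.48, where 42.8% of all genes were positive with a median of -0.43, so that the seizure difference was lower in DREADD than in CAG-GFP libraries. Other lists lay on the same side: pan-neuronal 0 of 14 positive (median -3.70), immature neuron 0 of 11 (-4.21), interneuron 0 of 6 (-7.44), CA pyramidal 2 of 8 (-3.44) and oligodendrocyte 0 of 10 (-3.83). Astrocyte markers lay on the other, with 10 of 10 positive (2.53). The negative sign was thus shared with other neuronal and glial lists, and their part in the members' values was not tested. None passed the edgeR test, which called 0% of all genes. At an unadjusted p under 0.05 there were 4 members against 11.7% of all genes. They were Plk5 (-11.33 ± 2.83, SE, edgeR adjusted p = 0.261), Rasl10a (-5.81 ± 2.01, edgeR adjusted p = 0.395), Calb1 (-6.03 ± 2.33, edgeR adjusted p = 0.412) and Rbfox3 (-5.14 ± 2.10, edgeR adjusted p = 0.412, -10.27 without DREADD Pilo 1). The value of Plk5 depends on the 0 counts of CAG-GFP Sham and is no measured size. DESeq2 called Plk5, Rasl10a and Rbfox3 (adjusted p = 5.31e-05, 0.0188 and 0.0359) against 7.82% of all genes. Dsp, Tdo2 and Icam5 stood at -7.08 ± 3.90, -7.09 ± 3.87 and -5.09 ± 2.96 (SE), and Stxbp6, Camk4 and Ntng1 at -1.74 ± 1.16, -0.77 ± 2.58 and -0.62 ± 3.14. With the set as a covariate all 10 stayed negative, with a median of -4.84.

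**Figure D3:**
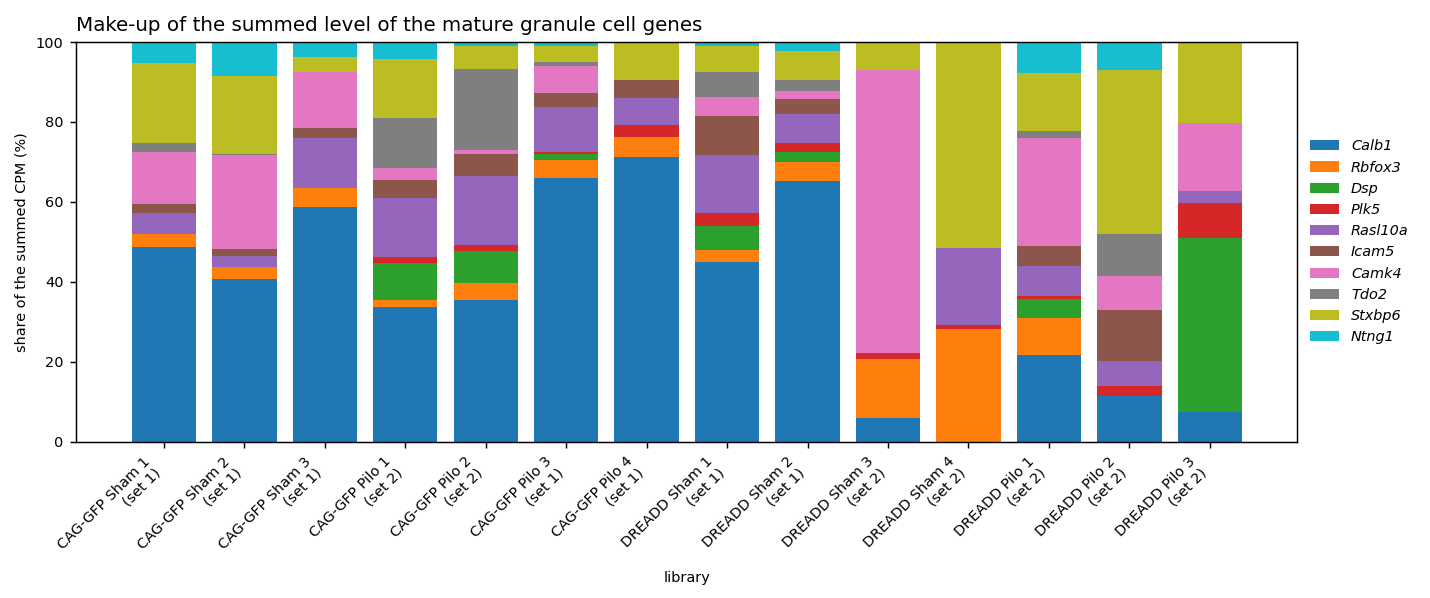
Share of each of the 10 genes in their summed CPM (%), for each of the 14 libraries. Calb1 makes up 33.6 to 71.1% in CAG-GFP Pilo and 7.30 to 21.6% in DREADD Pilo, and Camk4, Stxbp6 and Dsp each lead 1 library or more.

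The members did not keep the same proportions from library to library. Calb1 was the largest member in the 3 CAG-GFP Sham, the 4 CAG-GFP Pilo and the first pair of DREADD Sham libraries, with 33.6 to 71.1% of their summed CPM. In the 5 other libraries its share was 0 to 21.6%. There Camk4 led in DREADD Sham 3 (70.8%) and DREADD Pilo 1 (27.1%), Stxbp6 in DREADD Sham 4 (51.5%) and DREADD Pilo 2 (41.1%), and Dsp in DREADD Pilo 3 (43.7%). Summed over all 10 members the level with CAG-GFP was 125 ± 14.7 CPM (SD, n = 3) without seizures and 661 ± 352 CPM (n = 4) with them. With the DREADD it was 350 ± 306 CPM (n = 4) without seizures and 117 ± 33.8 CPM (n = 3) with them. Every CAG-GFP Pilo library (354 to 1158 CPM) lay above every CAG-GFP Sham (110 to 139 CPM) and DREADD Pilo library (84.9 to 152 CPM). Without Calb1 the sums were 63.6 ± 16, 309 ± 146, 177 ± 90.0 and 102 ± 34.6 CPM in the same order, and CAG-GFP Pilo 4 at 102 CPM then lay within the range of DREADD Pilo.

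A further 16 granule cell genes, among them Prox1, gave the background of the lineage; 15 passed the filter and none passed the edgeR test in any comparison. In CAG-GFP Pilo against CAG-GFP Sham 13 of 15 were positive (median 3.30), with C1ql2 and C1ql3 nearest the threshold (adjusted p = 0.0698 each). In DREADD Sham against CAG-GFP Sham 15 of 15 were positive (median 2.73). In DREADD Pilo 4 of 15 were positive against CAG-GFP Pilo (median -1.45) and 4 of 15 against DREADD Sham (median -1.14). The 4 genes with the highest mean level were Kcnip3, Prox1, C1ql3 and Prickle2. C1ql3, a secreted protein that organises synapses, averaged 3.19 ± 1.31 CPM (SD) in the sham and 85.4 ± 28.4 CPM in the seizure group of CAG-GFP. Under the DREADD it stood at 39.4 ± 28.2 CPM without and 28.8 ± 20.7 CPM with seizures. Prox1, the homeobox factor of the lineage, stood at 11 ± 4.72, 123 ± 124, 98.4 ± 70.8 and 44.5 ± 41.0 CPM in the same order, with its 0 values in CAG-GFP Pilo 4 and DREADD Pilo 3 noted above. Kcnip3, a calcium-binding partner of potassium channels, stood at 56.6 ± 8.74, 146 ± 89.3, 165 ± 100 and 71.0 ± 63.3 CPM. Prickle2, a planar polarity protein, stood at 31.7 ± 13.1, 28.6 ± 27.8, 42.0 ± 13.6 and 18.8 ± 17.0 CPM. Summed, these 16 genes did not separate the sets of DREADD Sham as the summed members did. They stood at 503 and 511 CPM in set 1 and at 679 and 439 CPM in set 2. Singly, some did split: Trpc6, Lct, Rspo3 and Dgkh had counts in both DREADD Sham libraries of set 1 and in neither of set 2. They were picked for that pattern. By the wider rule of set 1 above set 2 without overlap, the share over all genes was 26.9%.

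**Figure D4:**
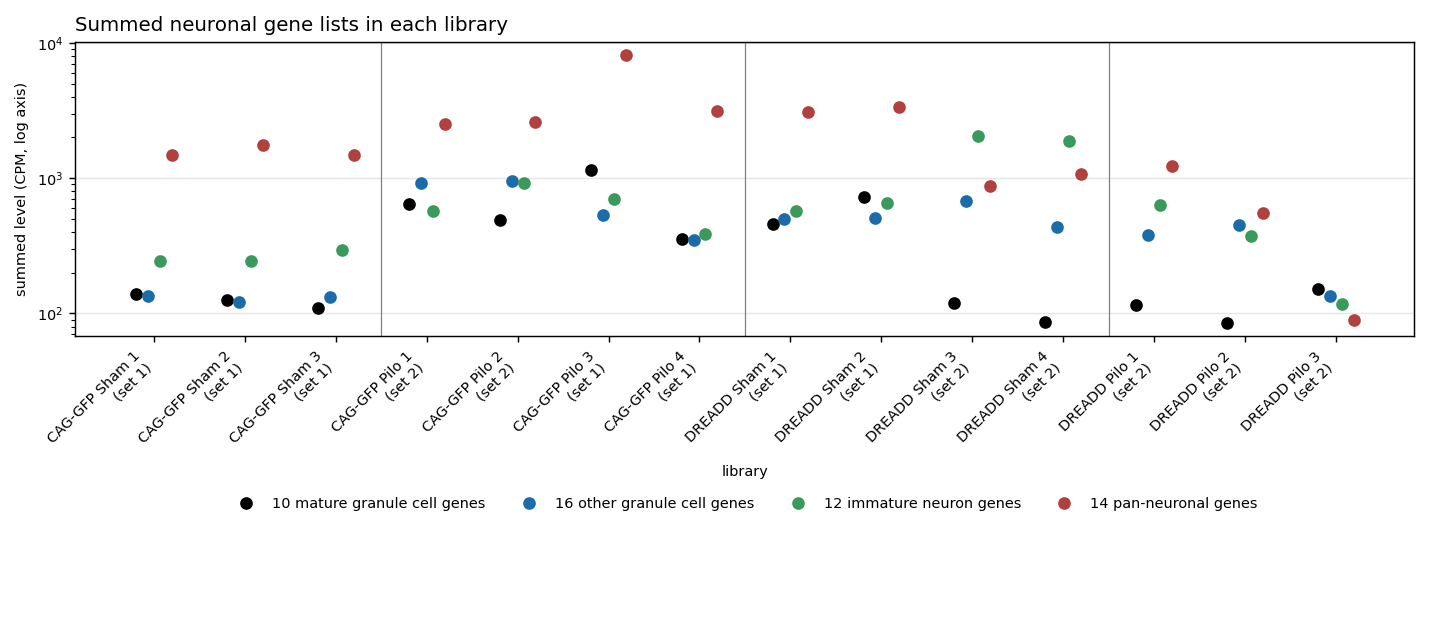
Summed level (CPM, log axis) of the 10 members, the 16 other granule cell genes, 12 immature neuron genes and 14 pan-neuronal genes in each library; vertical lines part the groups. In DREADD Sham 3 and 4 the members stand at 120 and 86.1 CPM while the immature neuron genes stand at 2051 and 1884 CPM.

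Markers of other hippocampal neurons were read in the same libraries. Summed over 9 interneuron markers the level with CAG-GFP averaged 12.7 ± 3.80 CPM without seizures and 134 ± 109 CPM with them. With the DREADD it averaged 71.2 ± 22.6 CPM without and 47.7 ± 14.1 CPM with seizures, and 1 to 7 of the 9 markers were at 0 in each library. Summed over 8 CA pyramidal markers the level averaged 285 ± 25.8 CPM in CAG-GFP Sham, above the members' 125 CPM there. It averaged 147 ± 137 CPM after seizures with CAG-GFP, 125 ± 80.2 CPM in DREADD Sham and 49.1 ± 41.3 CPM in DREADD Pilo. The members were lowest in CAG-GFP Sham and DREADD Pilo and highest in CAG-GFP Pilo. The interneuron means were so too, whereas the pyramidal mean was highest in CAG-GFP Sham. The pyramidal sum also differed between set 1 and set 2, with means of 246 and 48.1 CPM in CAG-GFP Pilo. In DREADD Sham these were 194 and 55.8 CPM. The part of interneuron or pyramidal RNA in the members' levels was not tested.

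Over the 14 libraries the genes most like the members, by Pearson's r of log2 CPM with the mean z-score of the 10 members among 11447 candidate genes, were Nsf (0.936), Mindy3 (0.899), Nedd4l (0.894), Ppp3ca (0.894) and Rogdi (0.875). These r values describe 14 libraries that share virus, seizure group and set. Nsf, the ATPase that takes SNARE complexes apart, stood at 86.1 to 121 CPM in CAG-GFP Sham and at 392, 293, 382 and 135 CPM in CAG-GFP Pilo. In DREADD Sham it stood at 425 and 301 CPM in set 1 and at 56.7 and 56.1 CPM in set 2, and in DREADD Pilo at 58.8 to 87.0 CPM. Ppp3ca, the catalytic subunit of the calcium-dependent phosphatase calcineurin, stood at 190 to 313 CPM in CAG-GFP Sham and at 610, 667, 937 and 285 CPM in CAG-GFP Pilo. Both genes were thus high in CAG-GFP Pilo 1 to 3 and in DREADD Sham 1 and 2, where the members were high.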

How the data were processed

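The deposited table held whole-number read counts per gene for 14 libraries and 43346 mouse Ensembl identifiers. Per the submitters' processing notes the authors used R 4.1.1, edgeR, Subread with featureCounts, and Bowtie2. The notes name hg38, a human build, whereas the identifiers are mouse. Annotation release and strand setting: not given in the sources used here. Symbols came from GENCODE M21 (GRCm38) by identifier without version, matching 42462 identifiers (98.0%). Libraries were grouped by title.

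Differences in counts were tested in R 4.3.3 by edgeR 4.0.16 (TMM, filterByExpr, quasi-likelihood F-test, 1 fit of all 14 libraries, Benjamini-Hochberg over 18676 genes, threshold 0.05), after the code had been tested on simulated data; SE is the log2 fold change over the root of F. The common biological coefficient of variation was 1.47. TMM factors were 0.683 to 0.713 in CAG-GFP Sham and 0.716 to 1.39 elsewhere. CPM used all counts of a library. No pair of libraries of the same group agreed within sampling noise, and pairs across groups were not checked. Same-numbered libraries of different groups did not deviate together (correlations from -0.38 to 0.12), and numbers were not taken as pairs. Same-numbered libraries of CAG-GFP Pilo and DREADD Sham lie in different sets, so the check could not show pairing between those groups. DESeq2 1.42.0, other scaling, no filter, each library left out, a replicate block and the library set were alternatives; leaving CAG-GFP Pilo 4 or DREADD Pilo 3 out of the counts without overlap was chosen after seeing the data. The members and gene lists were chosen with earlier results of these data known. Named beyond the 10 members were granule cell genes past the test or among the 4 highest in mean CPM. The 5 genes most like the members over the libraries (mean CPM of at least 5) were named too. C1ql2, Trpc6, Lct, Rspo3 and Dgkh were named after their values were seen.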

Additional observations from a re-analysis of the deposited data

Results flagged for a closer look

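Calb1 in CAG-GFP Pilo 3 stood at 765 CPM, where the other 3 CAG-GFP Pilo libraries stood at 173 to 251 CPM, and the gap to the next library was larger than Dixon's 95% limit for 4 values (0.829 of the range). Such a gap is met by chance in about 1 in 20 groups, and 20 groups of 4 were examined. The same library held the highest summed pan-neuronal level of all 14, 8083 CPM; its part in the level of Calb1 was not tested.

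For Rbfox3 every CAG-GFP Pilo library lay above every CAG-GFP Sham library, and every DREADD Pilo library lay below every DREADD Sham library. The interaction was -5.14 ± 2.10 (SE), with an edgeR p of 0.0273 and an adjusted p of 0.412, which ranged from 0.0359 (DESeq2) to 0.793 over the alternatives. Leaving out 1 library moved the value from -10.27 (without DREADD Pilo 1, which held nearly all Rbfox3 counts of its group) to -4.56 (without CAG-GFP Pilo 3). The 3 libraries of DREADD Pilo were all of set 2, and in that set alone Rbfox3 was also lower in DREADD Pilo than in DREADD Sham without overlap.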

How the results depend on the processing

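Over 21 alternatives and the 5 tests, 94 of 99 recounts gave 0 members past the threshold, as in the fit reported, including each fit without 1 library (0 to 0 in each test). DESeq2 called 2 members in CAG-GFP Pilo against CAG-GFP Sham, 1 in DREADD Sham against CAG-GFP Sham and 3 in the interaction; set 1 alone called 1 in each of the first pair of comparisons. The cause was not tested. Leaving out CAG-GFP Pilo 4 changed the members higher without overlap in CAG-GFP Pilo from 6 to 8, and leaving out that library or DREADD Pilo 3 changed those lower in DREADD Pilo than in CAG-GFP Pilo from 4 to 5. Without TMM factors the summed members of CAG-GFP Sham averaged 87.6 CPM in place of 125 CPM. With RLE in place of TMM the median log2 fold change of all genes moved most in DREADD Pilo against CAG-GFP Pilo, from 0.28 to 0.38. The genes called in CAG-GFP Pilo against CAG-GFP Sham numbered 45 in the fit reported, 1 with the replicate block, 89 with the set as a covariate, 471 in set 1 alone and 2203 by DESeq2. In DREADD Sham against CAG-GFP Sham they numbered 56, 0, 146, 530 and 2655 in the same order. Leaving out 1 library gave 3 (without any 1 CAG-GFP Sham library, or without CAG-GFP Pilo 1) to 151 (without DREADD Pilo 3) genes in the first, and 6 (without CAG-GFP Sham 3) to 260 (without DREADD Pilo 3) in the second.

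Of 990 recomputed log2 fold changes 948 kept direction and side of the threshold and 34 changed sign, none of them past the threshold. In CAG-GFP Pilo against CAG-GFP Sham the replicate block turned Camk4 to -0.26 and changed no call of a member, and set 1 turned Ntng1 to -0.50. In DREADD Sham against CAG-GFP Sham set 1 gave Camk4 -0.18 and Ntng1 0.52, and in DREADD Pilo against CAG-GFP Pilo set 2 gave Camk4 0.90. In DREADD Pilo against DREADD Sham the set as a covariate gave Calb1 0.25, Plk5 0.80, Icam5 3.25, Tdo2 0.93 and Ntng1 3.48; set 2 alone gave Calb1 2.08, Plk5 1.98, Icam5 9.41, Tdo2 8.80, Stxbp6 0.06 and Ntng1 9.28, where the values of Icam5, Tdo2 and Ntng1 are against libraries without counts and are no measured sizes; and RLE and DESeq2 gave Ntng1 0.08. Leaving out 1 library turned signs within these ranges: in CAG-GFP Pilo against CAG-GFP Sham Camk4 -1.43 (without CAG-GFP Pilo 3) to 0.68 and Ntng1 -0.51 (without CAG-GFP Pilo 1) to 0.98; in DREADD Sham against CAG-GFP Sham Camk4 -0.74 (without DREADD Sham 3) to 0.96. In DREADD Pilo against CAG-GFP Pilo Dsp ran from -3.42 (without DREADD Pilo 3) to 0.33 and Camk4 from -0.64 to 1.47 (without CAG-GFP Pilo 3). In DREADD Pilo against DREADD Sham Dsp ran from -2.10 (without DREADD Pilo 3) to 2.02, Camk4 from -0.93 to 0.78 and Ntng1 from -0.79 to 1.69. In the interaction Camk4 ran from -1.19 to 0.92 and Ntng1 from -1.30 to 1.13. No set holds all 4 groups, so the interaction was not fitted within a set.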
